A study of Rattus norvegicus with 13 samples.

Results

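Repolarization of the rat ventricle is carried by potassium channels, and 9 of the genes that encode them were followed in left ventricle (LV) of late-pregnant rats. They were found as the probe sets that carry the single gene symbol of a listed channel gene, which gave 16 probe sets for the 9 genes, of 14217 genes with a single-symbol probe set on the array. The list was chosen by measured values: it was drawn up because Kcna5 was lower and Kcna4 higher in methionine-fed hearts, so values of that comparison are given as a description with no test.

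Each array, an Affymetrix rat genome chip, held the LV RNA of 1 rat, and the rats were female Sprague Dawley rats of 200 to 250 g at purchase that shared standard chow and a timed pregnancy. Control rats drank plain water (n = 5). Methionine-fed rats (Met-fed, n = 4), a model of hyperhomocysteinemia, drank L-methionine at 9 g/L, and L-NAME rats (n = 4) drank the NO synthase inhibitor L-NAME at 1 g/L. By the labels both were given over days 1 to 20 of pregnancy and hearts were taken on day 20 or 21, whereas the study's methods describe rats in a 3rd or 4th pregnancy with methionine since the first. Age was not stated, the study's methods name no L-NAME rats for the array experiment and 4 of the control arrays, and whole LV tissue was used, so that cell types are mixed.

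A cardiac action potential ends when potassium leaves the cell. In rat ventricle the fast transient outward current, carried by Kv4 channels (Kcnd2, Kcnd3) with their calcium-binding partner KChIP2 (Kcnip2), dominates early repolarization, and Kv1.4 (Kcna4) gives a slowly recovering transient component. Kv1.5 (Kcna5) gives an ultrarapid delayed rectifier. KvLQT1 (Kcnq1) and ERG (Kcnh2) give the slow and rapid delayed rectifiers, Kir2.1 (Kcnj2) holds the resting potential, and Kir6.2 (Kcnj11) is the pore of the channel that opens when ATP falls. Expression of Kv4.2 is known to fall from the outer to the inner wall of the rat ventricle.

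Of the 9 genes, 5 were read by 1 probe set and 4 by several. A gene is described by its brightest probe set, the one with the highest mean log2 signal over the 13 arrays, and the other probe sets are given beside it. All values are log2 of the MAS5 signal, a linear brightness per probe set, and differences are log2 differences with the standard error from limma, fitted to all 31042 probe sets. The 16 probe sets include 14 that lay above the highest bacterial control probe set, a measure of background, on all 13 arrays. The exceptions were the probe set of Kcnj2, above it on 0 arrays, and the dimmest of Kcnip2 (1368639_at), above it on 2.

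The L-NAME arrays stood apart from the others as a group. Their median signal was 34.2 to 36.9, against 25.7 to 27.2 on control and 25.8 to 29.2 on Met-fed arrays. The log2 ratio of 3′ to 5′ beta-actin signal, which rises as RNA degrades or labelling stops short, was 2.32 to 2.70 on L-NAME, 3.31 to 3.67 on control and 3.32 to 3.71 on Met-fed arrays. That of Gapdh was 0.44 to 0.66, 1.04 to 1.31 and 0.98 to 1.26 in the same order. That of hexokinase overlapped between the groups, at 1.51 to 2.06, 0.90 to 3.71 and 0.87 to 2.36. All 8 measured markers of ventricular cardiomyocytes (among them Myh6 and Tnnt2) had their signals above background on every array, and all 8 fell in L-NAME hearts (median log2 change -0.63, limma, adjusted p under the 0.05 threshold for each). Their summed signal was 17960 to 20863 on L-NAME arrays, 28176 to 30975 on control arrays and 23089 to 32139 on Met-fed arrays. Fewer cardiomyocytes and less of these RNAs per cardiomyocyte cannot be told apart in such tissue, and the part of array differences in this fall was not tested. All 8 lie in the brightest of 4 classes of mean signal, where 38.8% of probe sets were called lower and 28.6% higher against control. The spike-in hybridization controls had a mean log2 signal of 9.80 to 9.97 on L-NAME, 10.16 to 10.41 on control and 10.02 to 10.27 on Met-fed arrays. In L-NAME against control, 45.7% of all probe sets passed an adjusted p of 0.05 (28.7% higher and 17.0% lower), and of the calls 62.8% were higher as deposited, 50.1% after quantile normalization and 34.9% after array median centring. Centring lowered every log2 change of L-NAME by 0.42 against control and by 0.37 against Met-fed. For the main L-NAME changes below, the value relative to the array medians is therefore given too. What part these array differences have in the values below was not tested.

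Kcna5 had the lower signal in both treated groups. The 5 control arrays had log2 signals of 6.64, 7.55, 6.98, 6.60 and 6.53. The Met-fed arrays had 5.81, 5.35, 5.97 and 6.09, and the L-NAME arrays 5.39, 5.92, 6.18 and 5.56. All treated hearts lay under all controls, and the treated groups covered nearly the same range. The mean was 6.86 ± 0.42 (SD, n = 5) in control, 5.80 ± 0.32 (SD, n = 4) in Met-fed and 5.76 ± 0.35 (SD, n = 4) in L-NAME hearts. The difference from control was -1.06 ± 0.23 in Met-fed hearts, a 2.08-fold lower signal that helped to choose the genes. It was -1.10 ± 0.23 in L-NAME hearts (-1.52 relative to the array medians), which is measured against the same 5 control arrays and carries no test either. L-NAME and Met-fed hearts differed by -0.04 ± 0.24 (-0.41 relative to the array medians), with a 95% interval from -0.54 to 0.46 as deposited. Control replicate 2 was the highest control. Without it the differences from control were -0.89 in Met-fed and -0.93 in L-NAME hearts.

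Kcna4 ran the other way in Met-fed hearts. Its control signals were 6.74, 7.38, 7.34, 6.89 and 7.09. The Met-fed signals were 7.88, 7.68, 7.52 and 7.29, and the L-NAME signals 7.55, 7.49, 7.30 and 7.003. Met-fed replicates 1, 2 and 3 exceeded every control, while Met-fed replicate 4 lay within the control range. The L-NAME arrays fell between, and overlapped both other groups. The means were 7.09 ± 0.28 (SD, n = 5) in control, 7.59 ± 0.25 (SD, n = 4) in Met-fed and 7.34 ± 0.25 (SD, n = 4) in L-NAME hearts. Met-fed hearts differed from control by 0.50 ± 0.16 (1.42-fold), the value that chose this gene. The study's own list of changed genes gives this probe set a larger rise, from fewer control arrays and with other software. Why the values differ was not tested. L-NAME hearts differed from control by 0.25 ± 0.16, which turned to -0.18 relative to the array medians, so that the place of L-NAME relative to control depends on the scaling. L-NAME minus Met-fed was -0.25 ± 0.17 for Kcna4 (-0.62 relative to the array medians).

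**Figure D1:**
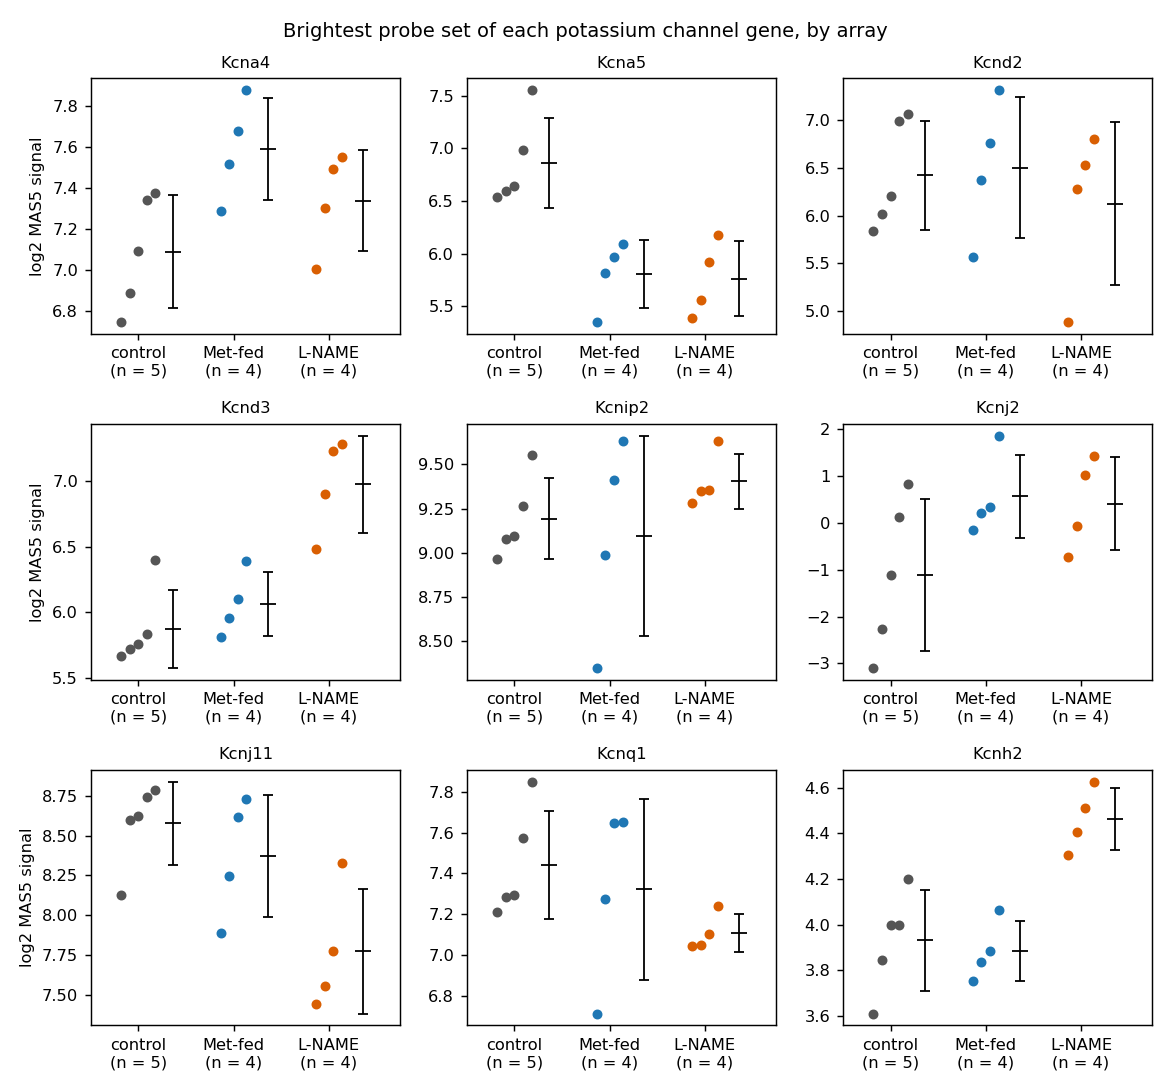
Log2 MAS5 signal (vertical axis, a separate scale for each gene) of the brightest probe set of each of the 9 genes on every array, with a bar for each group mean and its SD (control n = 5, Met-fed n = 4, L-NAME n = 4). Kcna5 signals of both treated groups lie under those of all controls, and the L-NAME signals of Kcnd3 and Kcnh2 lie above those of all other arrays.

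In the comparison of Met-fed with control hearts, Kcna5 was the 1 probe set of the 16 whose groups did not overlap. Over all probe sets 2.89% did not overlap, and nothing is read from either value, since this comparison chose the genes. The 16 differences were above 0 in 8 and below 0 in 8 probe sets, with a median of -0.01 (0.00 over all probe sets). For the brightest probe sets of the genes other than Kcna4, Kcna5 and Kcnj2, the differences lay between -0.21 ± 0.19 (Kcnj11) and 0.19 ± 0.19 (Kcnd3). The 95% interval was -0.51 to 0.32 for Kcnip2, -0.50 to 0.26 for Kcnq1 and -0.75 to 0.91 for Kcnd2. These intervals describe the precision, and no size of change is excluded by them, since this comparison chose the genes.

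Of the genes of the fast transient outward current, Kcnd3, which encodes Kv4.3, rose in L-NAME hearts by its brightest probe set, whereas Kcnd2 and Kcnip2 were called higher by dimmer probe sets and not by their brightest. The brightest probe set of Kcnd3 (1378111_at) had log2 signals of 5.67, 5.76, 5.72, 6.40 and 5.83 in control hearts. In Met-fed hearts it had 5.81, 6.10, 6.39 and 5.96, and in L-NAME hearts 7.28, 7.23, 6.90 and 6.48. Every L-NAME array lay above every other array. The change against control was 1.10 ± 0.19 (2.14-fold, limma adjusted p = 0.000188) and stayed above 0 relative to the array medians, at 0.67 (adjusted p = 0.0101 in limma). Against Met-fed hearts it was 0.91 ± 0.20 (adjusted p = 0.00194 in limma, and 0.54 relative to the array medians). The other 2 probe sets of Kcnd3 did not pass against control. That of intermediate signal (1369144_a_at) had a change of 0.56 ± 0.27 (0.13 relative to the array medians) and the dim one (1369145_a_at) one of 0.03 ± 0.29, which turned to -0.39 relative to the array medians. Leaving out control replicate 4 or L-NAME replicate 4 brought 1369144_a_at past the threshold, with changes of 0.74 and 0.78 (adjusted p = 0.0263 and 0.0250 in limma).

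Kcnd2, which encodes Kv4.2, varied widely from rat to rat. By its brightest probe set (1379863_at) the group means differed by less than the spread within groups. That probe set had signals of 7.07, 6.02, 6.20, 6.99 and 5.84 in control, 6.37, 6.76, 7.32 and 5.57 in Met-fed and 6.80, 6.28, 6.53 and 4.88 in L-NAME hearts. Within groups the highest and lowest rats differed 2.35-fold, 3.36-fold and 3.78-fold. The pooled SD of 0.73 exceeded that of 97.6% of the probe sets of similar signal, 1 of 4 classes of mean signal with equal numbers. A wide spread was not particular to this probe set. The share was 95.3% for 1373987_at and 96.3% for 1370773_a_at of Kcnip2 and 94.7% for 1391007_s_at of Kcnj11, but 72.4% for the dim probe set of Kcnd2. The dim probe set (1387476_at) had 3.60, 2.25, 2.35, 3.07 and 2.01 in control, 3.48, 3.83, 4.10 and 2.64 in Met-fed and 4.60, 4.88, 4.74 and 3.35 in L-NAME hearts. Both probe sets put the 5 control rats in the same order (replicates 1, 4, 3, 2 and 5 from high to low) and the 4 Met-fed rats in the same order (3, 2, 1 and 4), and both put replicate 4 last among the L-NAME rats. The change of L-NAME against control did not agree between them. It was -0.30 ± 0.39 (limma adjusted p = 0.575, and -0.72 relative to the array medians) for the brightest, with a 95% interval from -1.13 to 0.53. It was 1.74 ± 0.42 (limma adjusted p = 0.00262, and 1.31 relative to the array medians) for the dim one. Without L-NAME replicate 4 the change of the brightest turned to 0.12. Against Met-fed hearts the dim probe set differed by 0.88 ± 0.44 (limma adjusted p = 0.125), and by 1.23 without L-NAME replicate 4, which passed.

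Kcnip2 showed the widest gap between probe sets. Its brightest probe set (1373987_at) had signals of 8.97, 9.08, 9.10, 9.55 and 9.26 in control, 8.35, 9.63, 9.41 and 8.99 in Met-fed and 9.63, 9.28, 9.35 and 9.36 in L-NAME hearts, and the groups overlapped. L-NAME hearts differed from control by 0.21 ± 0.20 (limma adjusted p = 0.412), which turned to -0.21 relative to the array medians. A second probe set (1370773_a_at) had 4.37, 5.16, 3.64, 5.35 and 4.04 in control, 4.25, 5.61, 4.88 and 3.88 in Met-fed and 7.48, 6.93, 7.22 and 7.12 in L-NAME hearts. All L-NAME arrays lay above all others, with a change of 2.67 ± 0.36 against control (6.38-fold, limma adjusted p = 1.50e-05, and 2.25 relative to the array medians). Against Met-fed hearts this probe set rose by 2.53 ± 0.38 (adjusted p = 6.62e-05 in limma). The suffix of its name marks, in the manufacturer's scheme, probes that match several transcripts of a single gene. The dimmest probe set (1368639_at) was above background on 2 of 13 arrays, so no change is read from it.

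**Figure D2:**
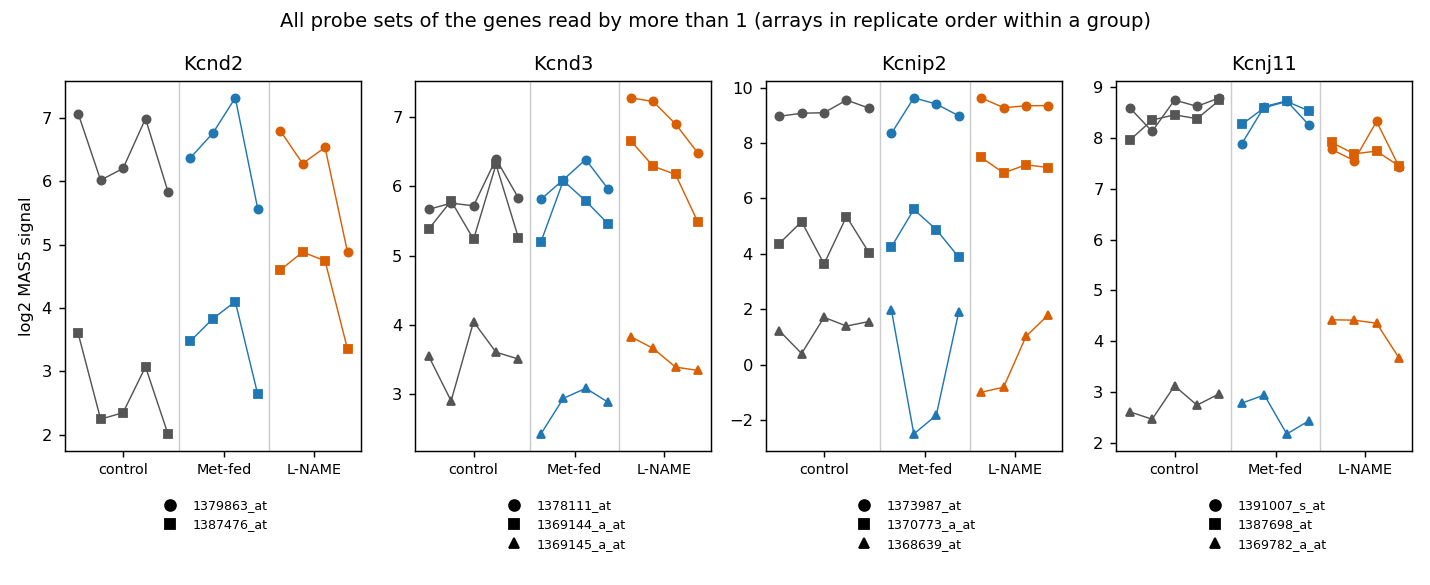
Log2 MAS5 signal (vertical axis, a separate scale for each gene) of every probe set of Kcnd2, Kcnd3, Kcnip2 and Kcnj11, with the arrays along the horizontal axis in replicate order within control (grey), Met-fed (blue) and L-NAME (orange) and a marker shape for each probe set. The middle Kcnip2 probe set and the dim Kcnj11 probe set step up in L-NAME hearts, while both bright Kcnj11 probe sets step down.

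Kcnj11, the pore of the ATP-sensitive channel, fell in L-NAME hearts by its bright probe sets. The brightest (1391007_s_at) had 8.59, 8.13, 8.75, 8.62 and 8.79 in control, 7.89, 8.62, 8.73 and 8.25 in Met-fed and 7.77, 7.55, 8.32 and 7.44 in L-NAME hearts. L-NAME replicate 3 reached into the control range, and the other L-NAME arrays lay under it. The change was -0.80 ± 0.19 against control (1.74-fold lower, limma adjusted p = 0.00279, and -1.23 relative to the array medians). The second bright probe set (1387698_at) had 7.95, 8.35, 8.45, 8.38 and 8.74 in control, 8.27, 8.59, 8.72 and 8.53 in Met-fed and 7.91, 7.69, 7.74 and 7.45 in L-NAME hearts. Here every L-NAME array lay under every other array, with changes of -0.68 ± 0.14 against control (adjusted p = 0.000831, and -1.10 relative to the array medians) and -0.83 ± 0.15 against Met-fed hearts (adjusted p = 0.000323, both limma). The dim probe set (1369782_a_at) moved oppositely. It had 2.61, 2.47, 3.12, 2.74 and 2.97 in control, 2.78, 2.94, 2.18 and 2.44 in Met-fed and 4.42, 4.42, 4.36 and 3.67 in L-NAME hearts. Its rise of 1.43 ± 0.30 against control (adjusted p = 0.000764 in limma, and 1.01 relative to the array medians) left the groups without overlap. The changes of the bright probe sets were -0.80 and -0.68, where the median change of the 8 cardiomyocyte markers was -0.63. Whether these falls are linked was not tested.

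Kcnj11 was thus called both higher and lower in the same hearts, depending on the probe set. Of the 4525 genes with 2 or more single-symbol probe sets, 853 (18.9%) were called in both directions in L-NAME against control. In 4 classes of mean signal with equal numbers of probe sets, from dim to bright, the median change over all probe sets was 0.30, 0.54, 0.28 and -0.09. The dim probe sets of Kcnd2 and Kcnj11, with changes of 1.74 and 1.43, lie in class 2 of these. Their control means of 2.66 and 2.78 were near the log2 background of the control arrays (1.60 to 2.31), so these changes start close to the floor.

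Of the delayed rectifier genes, Kcnh2 was called as deposited and Kcnq1 was not. Kcnq1 had 7.21, 7.29, 7.85, 7.57 and 7.28 in control, 6.71, 7.65, 7.65 and 7.27 in Met-fed and 7.24, 7.10, 7.05 and 7.04 in L-NAME hearts. The L-NAME arrays lay at the lower edge of the control range, with replicate 1 inside it. The change of -0.33 ± 0.18 did not pass (limma adjusted p = 0.143), whereas it passed after quantile normalization (-0.52, adjusted p = 0.0360) and relative to the array medians (-0.76, adjusted p = 0.00416, both limma). Against Met-fed hearts its change of -0.21 ± 0.19 did not pass as deposited, but did relative to the array medians (-0.58) and, at -0.42, without Met-fed replicate 1. Kcnh2 had a dim signal, with 3.85, 4.00, 4.20, 4.00 and 3.61 in control, 3.89, 3.75, 4.06 and 3.84 in Met-fed and 4.51, 4.63, 4.41 and 4.31 in L-NAME hearts. All L-NAME arrays lay above all others, and the within-group spread was small (pooled SD 0.17). Its rise of 0.53 ± 0.21 against control passed as deposited (adjusted p = 0.0471 in limma) but was 0.11 relative to the array medians and 0.04 after quantile normalization (adjusted p = 0.712 and 0.901 in limma), and the call was lost on leaving out any single array other than control replicate 3, that is, in 12 of 13 cases. The signal of Kcnj2 was not above background on any array, so no change is read for this gene.

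**Figure D3:**
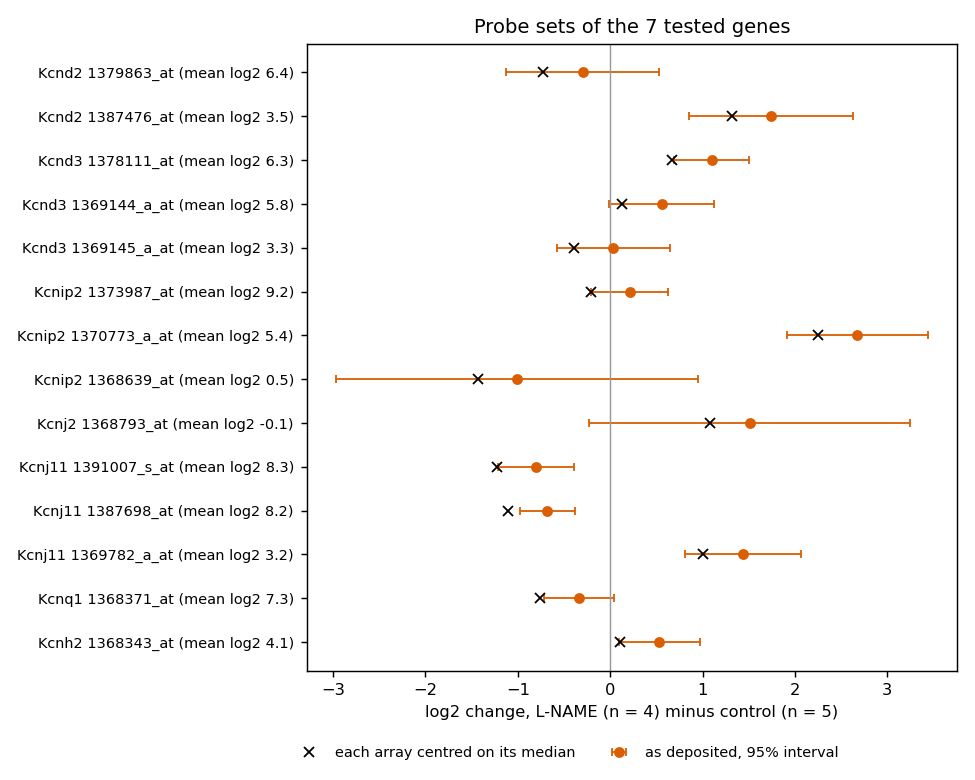
Log2 change of L-NAME (n = 4) against control (n = 5) hearts on the horizontal axis for the 14 probe sets of the 7 genes other than Kcna4 and Kcna5, with points for the limma estimate as deposited, lines for its 95% interval and crosses for the value relative to the array medians. The intervals of the bright Kcnj11 probe sets lie under 0 and those of 1370773_a_at of Kcnip2 and 1378111_at of Kcnd3 above it, with the crosses on the same side, while the wide intervals of 1368639_at and 1368793_at belong to probe sets at background.

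Of the 7 genes that could be tested, 3 were called by their brightest probe set in L-NAME against control (42.9%), Kcnd3 and Kcnh2 higher and Kcnj11 lower. Over all genes, by the brightest probe set, 49.4% were called (24.2% higher and 25.2% lower), so the share called among these genes was near that of all genes. Of their 14 probe sets, 7 were called (50.0%, against the 45.7% of all probe sets), and 5 did not overlap between the groups, where 40.3% of all probe sets did not. L-NAME against Met-fed hearts, which shares the L-NAME arrays, called the same 3 genes in the same directions, against 44.0% of all genes (21.5% higher and 22.5% lower). There 6 of the 14 probe sets were called, against 40.3% of all probe sets (25.4% higher and 14.9% lower), and 6 did not overlap, against 39.6%. Of the 4525 genes with several probe sets, 14.9% were called in both directions there, Kcnj11 among them. Kcnh2 (0.58 ± 0.22, adjusted p = 0.0459) and the brightest probe set of Kcnj11 (-0.60 ± 0.21, adjusted p = 0.0285, both limma) were the weaker calls. That of Kcnh2 was lost in 10 of 13 cases of leaving out 1 array (all but control replicates 1, 3 and 5), and relative to the array medians it was 0.21 (adjusted p = 0.491 in limma). That of Kcnj11 was lost on leaving out L-NAME replicate 1, 2 or 4 or Met-fed replicate 2 or 3, with changes of -0.60 to -0.48. Relative to the array medians the calls against control became 1 higher (Kcnd3) and 2 lower (Kcnj11 and Kcnq1). Among the L-NAME rats, replicate 1 had the highest signal in 11 of the 16 probe sets and replicate 4 the lowest in 11.

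Other genes of the action potential were read from 5 lists, 88 genes with a probe set of 110 listed. In Met-fed against control hearts 0 of the 88 passed an adjusted p of 0.05 in limma, as 0 of all probe sets did, and 11 had an unadjusted p under 0.05 (12.5% of the 88, against 11% of all genes). The smallest p of the lists fell mostly on dim probe sets. Scn2b, an accessory subunit of sodium channels, had a difference of 1.06 ± 0.34 (adjusted p = 0.315 in limma). Kcnj5, a subunit of the acetylcholine-gated channel, had 0.63 ± 0.24 by its brightest probe set and -1.66 ± 0.53 by a dimmer one. The mean log2 signal of the dimmer one was 1.18, under the log2 background of every array (1.28 to 2.31), so nothing is read from it. Kcne1, the partner of Kcnq1 in the slow delayed rectifier, had 0.82 ± 0.31, and Kcnj12, another inward rectifier, 0.44 ± 0.23. Kcnip4 and Kcnmb4, accessory subunits, had -1.66 ± 0.60 and -0.49 ± 0.25. The remaining genes with the smallest p, Kcnh4, Kcnh8, Kcnmb1 and Cacnb4, were at or near background.

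In L-NAME against control hearts 15 of the 88 were called higher and 8 lower, with a median change of 0.23 (0.22 over all probe sets), where 24.2% of all genes were called higher and 25.2% lower. Of the 88, 21 had at least the median signal of all probe sets. Relative to the array medians the calls turned to 7 higher and 19 lower, with a median of -0.19. The calls were 1 higher and 1 lower of 25 other voltage-gated alpha subunits, 1 and 3 of 14 accessory subunits, and 4 and 1 of 13 other inward rectifiers. They were 3 and 2 of 18 tandem-pore and calcium-activated channels, and 6 and 1 of 18 sodium, calcium and pacemaker channel genes. Among called genes of at least median signal whose groups did not overlap, the larger rises were those of Cacna2d1, an accessory subunit of calcium channels (1.72 ± 0.15), Kcnj8, the Kir6.1 pore of ATP-sensitive channels in vessels (1.59 ± 0.14), the tandem-pore channel Kcnk5 (1.35 ± 0.17) and the sodium channel subunit Scn4b (1.27 ± 0.18). Each passed relative to the array medians too, as did the inward rectifier Kcnj14 (1.00 ± 0.16). Kcns3, Cacna1c and Kcnj5 rose by 0.67 ± 0.14, 0.63 ± 0.16 and 0.61 ± 0.24 as deposited. These probe sets did not pass relative to the array medians. The dimmer one of Kcnj5 did (1.84 ± 0.53 as deposited, and 1.42), but its mean signal lay at background and nothing is read from it. The other called rises, Kcnt1, Kcne3, Kcnmb1, Scn2b, Cacna1h, Kcnj12 and Cacnb2, named after their values were seen, ran from 0.68 to 2.35, with Kcnt1 and Kcnmb1 above background on 4 and 5 of 13 arrays.

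Within the same limits the falls were those of Kcng2, a modifier subunit of Kv2 channels (-0.70 ± 0.10), the stretch-activated channel Kcnk2 (-0.53 ± 0.13) and Abcc9, the sulfonylurea receptor that joins Kir6.2 in cardiac muscle (-0.41 ± 0.09). All 3 passed relative to the array medians as well (limma). The other called falls, Kcnj16, Kcnip3, Kcnab2, Kcnk3 and Scn7a, likewise named after their values were seen, ran from -2.24 to -0.38, with Kcnj16 above background on 5 of 13 arrays. Abcc9 resembled Kcnj11 in the disagreement of its probe sets, since its 2 dimmer ones were called higher (1.14 ± 0.18 and 1.56 ± 0.32). For Kcng2 and Kcnk2 the dimmer probe sets did not pass. Kcnj8, Cacna2d1, Kcnk5, Scn4b and Kcnj14 had 1 probe set each.

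**Figure D4:**
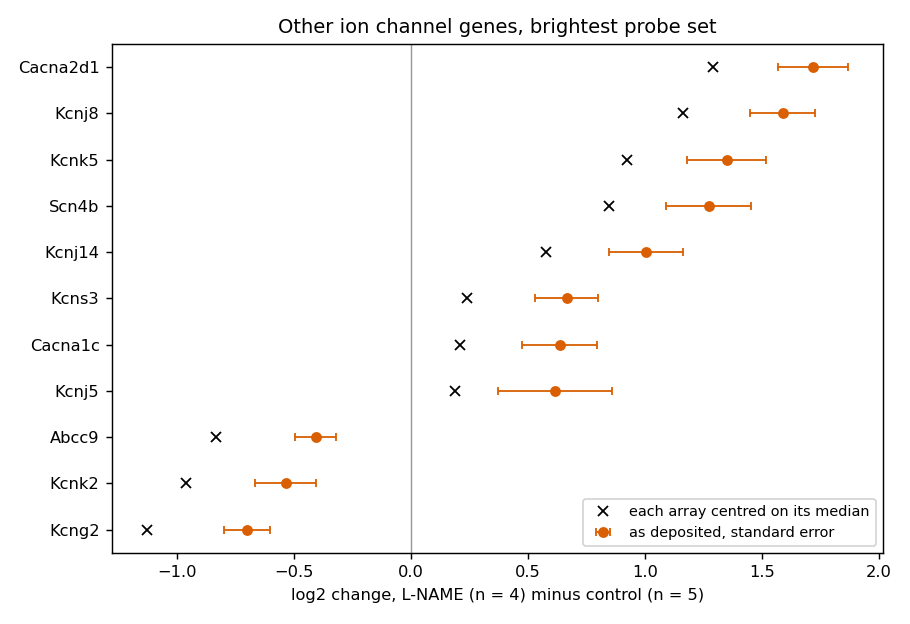
Log2 change of L-NAME (n = 4) against control (n = 5) hearts on the horizontal axis for the 11 other ion channel genes of at least median signal that passed limma with groups that did not overlap, with points and lines for the estimate and its standard error as deposited and crosses for the value relative to the array medians. Changes run from -0.70 (Kcng2) to 1.72 (Cacna2d1), and the crosses of all 11 lie on the same side of 0 as the points.

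Markers of other cell types are given beside these genes because vessels also express Kcna5 and Kcnj8, and atrial muscle Kcnj5. Of 5 smooth muscle markers, Acta2 and Tagln rose and Myh11 fell in L-NAME hearts (changes of 1.82, 1.45 and -0.59), and their summed signal was 1887 to 2548 against 1662 to 1896 in control and 1822 to 2118 in Met-fed hearts. Of 6 endothelial markers 4 fell in L-NAME hearts, with summed signals of 4107 to 4630 against 5625 to 6434 in control and 5028 to 5914 in Met-fed hearts. Of 4 atrial markers none passed in limma, and 0 had an unadjusted p under 0.05. Their summed signals of 1301 to 3841, against 1020 to 2372 in control and 1361 to 6634 in Met-fed hearts, overlapped. Of 6 fibroblast markers 2 fell in L-NAME against control hearts, and of 3 blood markers 2 fell. Over all genes 25.2% were called lower and 24.2% higher there, and no change of a cell type is read from these counts. In Met-fed hearts 0 markers of any list passed. The neuronal marker Th and the adipocyte marker Lep were not above background on any array. The part of these cell types in the values of the channel genes was not tested.

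The genes whose signals over the 13 arrays, each centred on its own mean, lay nearest to Kcna5 were Pcdh20, Castor1 and Tsc22d3, with root mean square differences of 0.29, 0.36 and 0.38, where the SD of Kcna5 itself was 0.64. Pcdh20 had group means of 7.13 in control, 6.23 in Met-fed and 5.74 in L-NAME hearts. Nearest to Kcna4, whose SD was 0.32, were Inpp4b, Gid4 and Rdm1, at 0.17, 0.18 and 0.19.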

How the data were processed

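The authors computed linear signal intensity values with MAS5 (version not given in the sources used here) on Affymetrix rat genome arrays and deposited them. Signals had been scaled to a trimmed mean of 150.0 on each array (2% cut at either end), and none was rescaled here. Groups came from the sample titles. After 57 manufacturer's control probe sets were left out of 31099, log2 values of 31042 were fitted with limma 3.58.1 in R 4.3.3, with 1 coefficient per group over all 13 arrays, no offset, no filter and a variance that follows the signal. P-values were adjusted over all probe sets (Benjamini-Hochberg, threshold 0.05). No test is given for methionine-fed against control values of the 9 genes, nor for Kcna4 and Kcna5. The members and lists were chosen with earlier results of these data known. Of the listed genes, those named had at least the median signal, groups without overlap and an adjusted p under 0.05 (the 3 largest rises and falls per list with L-NAME), or were the 2 of smallest p per list with methionine. Symbols came from the platform annotation, where 20826 probe sets have 1 symbol, 436 several and 9780 none. Background was the highest of 27 bacterial control probe sets on the same array. The fit was tested on simulated data. Nothing says how replicate rats were kept, and the number of arrays limits the precision. Figures were drawn with matplotlib 3.10.9.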

Additional observations from a re-analysis of the deposited data

Results flagged for a closer look

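A single array stood apart from the rest of its group in 2 of 48 groups examined (16 probe sets in 3 groups), where chance flags about 5%. For Kcnd3 (1378111_at), control replicate 4 had a log2 signal of 6.396, above the 5.669 to 5.833 of the other controls and still under every L-NAME array. For the dim probe set of Kcnj11 (1369782_a_at), L-NAME replicate 4 had 3.674, under the 4.356 to 4.423 of the other L-NAME arrays and above every control and methionine-fed array.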

How the results depend on the processing

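The 7 tested genes gave 2 calls higher and 1 lower (brightest probe sets) in each L-NAME comparison. Against control these became 1 and 2 after quantile normalization and after array median centring. The higher calls became 1 with a filter at the median signal (which removes Kcnh2), with the 2 groups alone and with a replicate block, and the lower calls 0 when the probe sets of a gene were averaged. Against methionine-fed hearts the higher calls became 1 under quantile normalization, centring, the filter and the replicate block. The lower calls became 2 under centring and 0 without a variance trend, by the methods' t-test and with averaged probe sets. Leaving out 1 array at a time gave 1 to 2 higher calls in either comparison, and 1 lower call against control and 0 to 2 against methionine-fed hearts. The probe sets called against control as deposited and under both other scalings, besides Kcnd3 (1378111_at), were 1387476_at of Kcnd2, 1370773_a_at of Kcnip2 and all 3 of Kcnj11, while Kcnq1 was called under both other scalings and not as deposited.

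Of the other channel genes, 15 higher and 8 lower with L-NAME became 7 and 19 under centring and 9 and 5 with the filter, the lower count 16 after quantile normalization and 2 with averaged probe sets, and the higher count 10 to 16 on leaving out 1 array. Some uncalled changes turned. Against control, Kcnd3 (1369145_a_at, 0.03) turned to -0.49 by quantile normalization, -0.39 by centring and -0.12 to 0.16 on leaving out 1 array, Kcnip2 (1373987_at) to -0.21 by centring, and Kcnd2 (1379863_at) ranged from -0.52 to 0.12 on leaving out 1 array. Against methionine-fed hearts, Kcnip2 turned to -0.058 by centring (1373987_at), and its probe set at background (1368639_at, 0.37) to -0.18 by quantile normalization, -0.027 and -0.010 with offsets of 16 and 50, and -0.43 to 1.07 on leaving out 1 array. On leaving out 1 array Kcnd2 (1379863_at) ranged from -0.69 to 0.035 and Kcnj2, at background, from -0.50 to 0.27. The causes were not tested.

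The methionine-fed count of 0 probe sets became 1 with a replicate block and 0 to 1 on leaving out 1 array, while 2478 probe sets had a p under 0.05 by the methods' t-test and 3319 in limma, of which 0 were left by either after adjustment. The difference of Kcna5 in methionine-fed hearts was -1.15 to -0.89 and that of Kcna4 0.41 to 0.60 on leaving out 1 array, and with an offset of 50 they were -0.65 and 0.38. Same-numbered arrays deviated together (correlation over 0.1) in 2 of 12 pairs, with correlations from -0.21 to 0.24. In 3 of the 12 the best match had the same number. Whether the replicate numbers pair the rats cannot be told from these values.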
